A study of Homo sapiens with 27 samples.

Results

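The genes CD24, CD44, EPCAM, MUC1, PROM1, KIT and ALDH1A3 were followed in RNA-seq counts of T47D, a luminal breast cancer cell line in long use. They were taken as the rows with these symbols in a gene count table, 7 of 26485 genes. The 12 libraries came from 4 T47D lines, with 3 libraries each, that had been transduced with lentivirus and selected with puromycin. Control cells carried the empty vector, and the others carried the GATA3 truncation mutant Splice del (X308 splice site deletion), C321fs or A333fs, fused to a Ty1 tag and present beside the cells' own wild-type GATA3. Each mutant was a single selected pool, so what a mutant does and what its pool had for another reason cannot be told apart. The study calls its RNA-seq replicates biological, and the labels number the libraries of a line without saying that they came from separate cultures, so the p-values measure only the spread between these libraries, which may be technical.

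These genes serve together to sort and name cells of the mammary epithelium. CD24 is a small glycosylphosphatidylinositol-anchored protein abundant on luminal cells. CD44 is the receptor for hyaluronan and is abundant on basal and mesenchymal cells, and breast cancer cells with much CD44 and little CD24 on the surface are enriched for tumor-initiating cells. EPCAM, an epithelial adhesion protein, and MUC1, a transmembrane mucin of the apical surface, mark luminal cells. PROM1 (CD133) is a pentaspan protein of membrane protrusions. KIT, the receptor tyrosine kinase for stem cell factor, marks luminal progenitors. ALDH1A3 makes retinoic acid and contributes to the ALDH activity used to sort stem-like cells. GATA3 is a zinc-finger transcription factor that maintains the luminal state. Gene counts do not separate isoforms, including those of CD44, and RNA levels are not surface protein levels.

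The libraries held 27872208 to 36788024 counted fragments, and levels are given as CPM, the counts scaled to library size with TMM factors. All 12 luminal markers examined, among them ESR1, FOXA1 and CDH1, exceeded 3 counts in every line. Their summed level was 21205.7 to 24620.2 CPM in control, 14762 to 15777 CPM with Splice del, 15326.4 to 16226 CPM with C321fs and 16163.2 to 17477.8 CPM with A333fs, and its part in the results was not tested. In control most of the sum was KRT8, KRT19 and KRT18, with means of 7518, 5564 and 2615 CPM. With Splice del these means were 3697, 3579 and 1479 CPM. Means of ESR1 and CDH1 were higher than control with Splice del and A333fs and lower with C321fs. The means of the other markers, these keratins among them, were lower than control in every mutant line. Markers of other cell types were low: 12 fibroblast genes summed to 53.4 to 82.9 CPM, 12 leukocyte genes to 6.62 to 8.88 CPM and 10 endothelial genes to 7.02 to 15.0 CPM. Within the fibroblast list, whose sum was mostly COL1A1 and FN1, the matrix proteoglycans DCN and LUM differed between lines. DCN had 3, 1 and 2 counts in the control libraries, 216, 225 and 164 in those with Splice del, 1, 0 and 1 in those with C321fs and 383, 419 and 378 in those with A333fs. LUM had 7, 3 and 4 counts in control, 89, 63 and 37 with Splice del, 14, 6 and 15 with C321fs and 138, 176 and 138 with A333fs. Both were thus highest with A333fs and next with Splice del, as were CD24 and ALDH1A3, and their part in the results was not tested. FAP and POSTN of fibroblasts, PTPRC and MS4A1 of leukocytes, and TEK and EMCN of endothelium were at 0 in every library. GATA3 fragments, which include any from the introduced mutants, were 1247, 1339.7 and 1257 CPM in the control libraries, 962, 992 and 1050.5 in those with Splice del, 1142, 1130.2 and 1155 in those with C321fs and 1016, 1006 and 1028 in those with A333fs, so no mutant library exceeded the control libraries. In bulk RNA, fewer cells of a type and less RNA per cell cannot be told apart.

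A difference was called when edgeR's quasi-likelihood test gave an adjusted p under 0.01 (Benjamini-Hochberg, over the 14789 genes left by a filter on low counts) together with a change of more than 1.5-fold, which is 0.585 in log2. CD24, CD44, EPCAM, MUC1, PROM1 and ALDH1A3 passed the filter and KIT did not. Log2 fold changes are given ± SE.

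CD24 had the largest difference of A333fs from control among the 6 tested genes. It lies on the minus strand at chr6:106969831-106976855 of hg38, with 3159 bases of counted exons. Its level was 339.5, 354 and 390.2 CPM in the control libraries, 467, 457 and 443 in those with Splice del, 352, 369 and 347 in those with C321fs and 718, 701 and 675 in those with A333fs. The A333fs libraries stood above all others and the Splice del libraries between them and the rest, while control and C321fs overlapped. CD24 rose 1.93-fold with A333fs (log2 fold change 0.95 ± 0.06, edgeR adjusted p = 4.44e-09). With Splice del the log2 fold change was 0.33 ± 0.06 (edgeR adjusted p = 0.000138), under the limit on fold change, and with C321fs it was -0.02, with a 95% interval of -0.14 to 0.10. A333fs cells exceeded C321fs cells by 0.97 ± 0.06 (edgeR adjusted p = 3.91e-09) and Splice del cells by 0.62 ± 0.06 (edgeR adjusted p = 2.29e-06). The call over Splice del was lost with library size only (0.58) and in a test against a fold of 1.5. The descending order was thus A333fs, Splice del, then control and C321fs, and these last did not differ beyond their spread. The annotation lists 4 processed pseudogenes of CD24, so fragments may have been split between near-identical copies and the CD24 counts are uncertain to that extent.

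**Figure D1:**
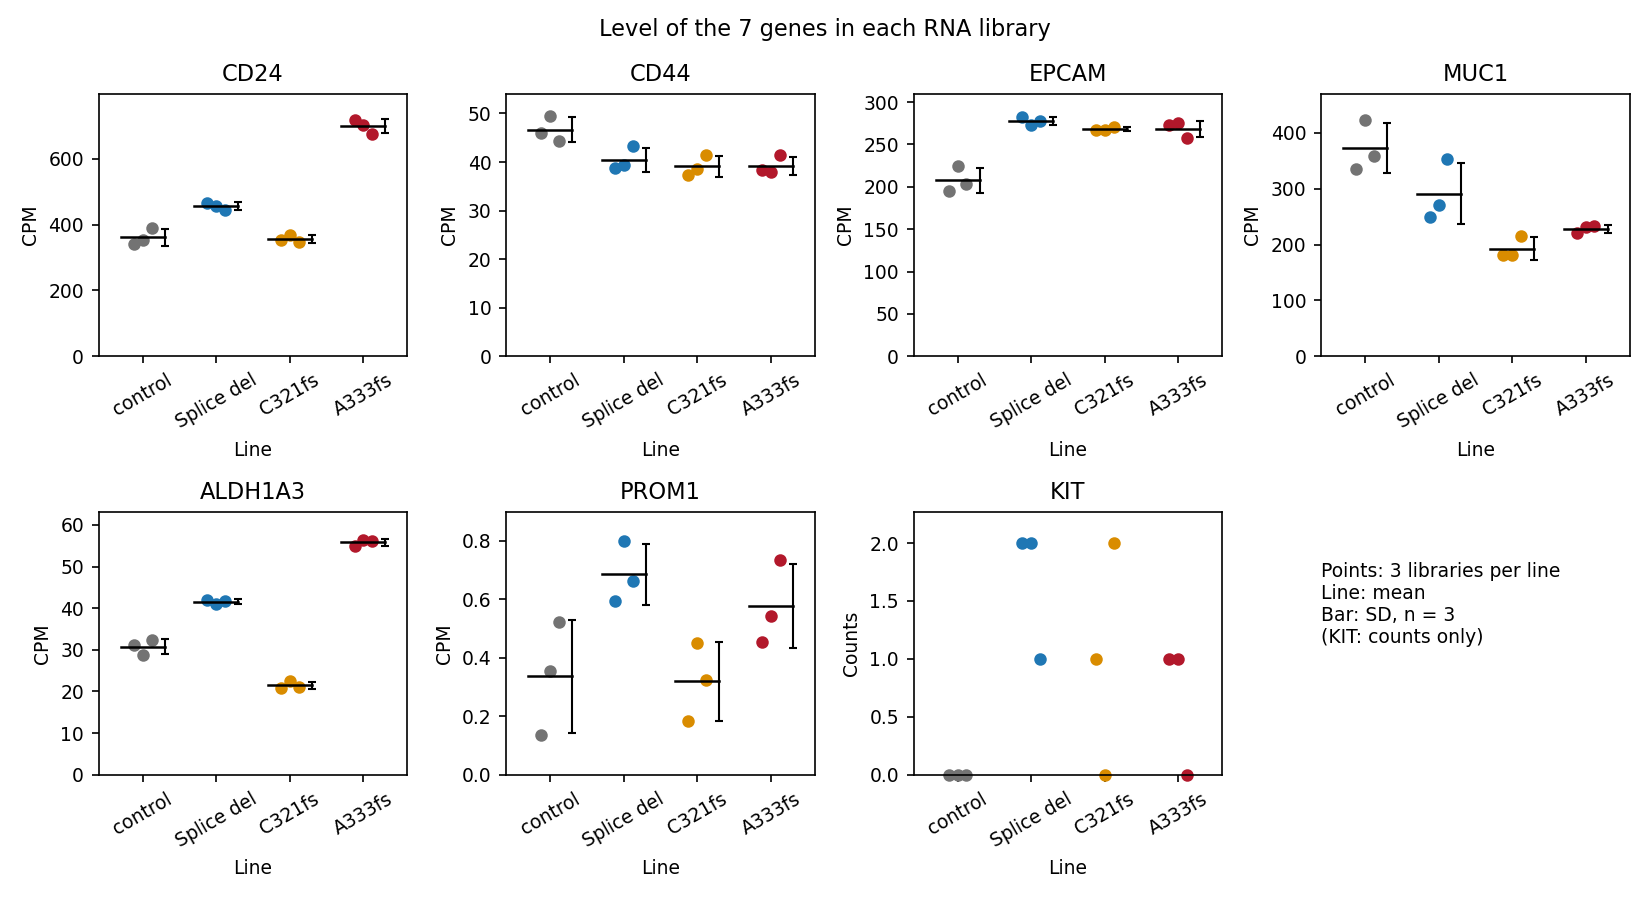
Level of each of the 7 genes by line, as CPM on the vertical axis (counts for KIT), with 1 point per library and, except for KIT, the mean and the SD of 3 libraries. CD24 and ALDH1A3 were highest in the 3 A333fs libraries, and KIT had at most 2 counts in any library.

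ALDH1A3 was the tested gene whose levels separated all 4 lines from each other. It lies on the plus strand at chr15:100879692-100916625, with 3607 bases of counted exons. Its level was 31.1, 28.7 and 32.3 CPM in the control libraries, 42.0, 40.9 and 41.8 in those with Splice del, 20.9, 22.5 and 21.2 in those with C321fs and 54.9, 56.5 and 56.1 in those with A333fs. No line overlapped another. ALDH1A3 rose 1.82-fold with A333fs (log2 fold change 0.86 ± 0.06, edgeR adjusted p = 1.63e-08). It was 0.44 ± 0.06 with Splice del (edgeR adjusted p = 1.72e-05) and -0.51 ± 0.06 with C321fs (edgeR adjusted p = 1.05e-05), on opposite sides of control and both under the limit on fold change. A333fs cells had 2.60 times the level of C321fs cells (log2 1.38 ± 0.06, edgeR adjusted p = 1.27e-10), and Splice del cells 1.93 times (log2 0.95 ± 0.06, edgeR adjusted p = 1.65e-08). The step from Splice del to A333fs was 0.43 ± 0.06 (edgeR adjusted p = 8.8e-05) and was not called.

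MUC1 was the gene that was called lower. It lies on the minus strand at chr1:155185824-155192915, with 1838 bases of counted exons, and its coding sequence holds a repeat array on which fragments are hard to place. Its level was 336, 423 and 359 CPM in the control libraries, 249.7, 272 and 353 in those with Splice del, 181, 182 and 216 in those with C321fs and 220.1, 232 and 233 in those with A333fs. Every C321fs and A333fs library lay below every control library, whereas replicate 3 of Splice del reached into the control range. MUC1 fell to 0.518 of the control level with C321fs (log2 fold change -0.95 ± 0.11, edgeR adjusted p = 1.08e-05) and to 0.613 of it with A333fs (-0.71 ± 0.11, edgeR adjusted p = 5.8e-05). With Splice del the log2 fold change was -0.36 ± 0.11 (edgeR adjusted p = 0.0124). Splice del cells exceeded C321fs cells by 0.59 ± 0.11 (edgeR adjusted p = 0.00186), close to the limit on fold change, and that call was lost without Splice del replicate 3 (0.43), without C321fs replicate 1 (0.55) and without C321fs replicate 2 (0.55). The GC content of the MUC1 exons was 58.7%, and the 981 tested genes within 1 percentage point of it had median log2 fold changes of -0.23, -0.24 and -0.35 for Splice del, C321fs and A333fs. When a GC and length trend was taken out of each library, MUC1 was -0.43 with A333fs and not called, and with scaling by library size only it was -0.56 and not called.

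**Figure D2:**
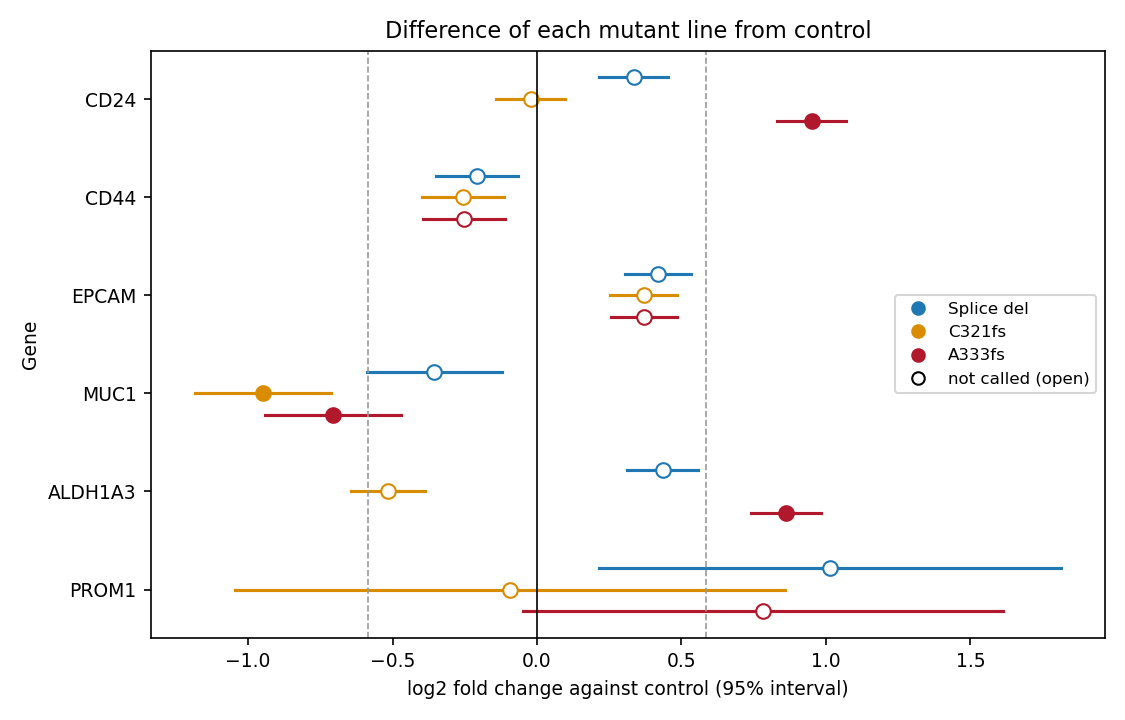
Log2 fold change against control for the 6 tested genes in each mutant line, with 95% intervals, filled points for called differences, open points for the others and dashed lines at the limit of 1.5-fold. CD24 and ALDH1A3 with A333fs and MUC1 with C321fs and A333fs were called, and the intervals of PROM1 were the widest.

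Sequence just before start sites of these 3 called genes is shown as the place where a GATA motif was looked for, with the letters AGATAA or AGATAG or TGATAA or TGATAG on either strand. It comes from RefSeq promoter windows of GRCh38.p14, which held 6 of the 7 genes and not EPCAM. Each stretch is written 5′ to 3′ on the strand of the gene, in lower case with matches in capitals and without bases counted as exons, and 2 start sites of CD24 are shown, both inside the span of the gene as counted.
CD24, chr6:106975628-106975877, minus strand: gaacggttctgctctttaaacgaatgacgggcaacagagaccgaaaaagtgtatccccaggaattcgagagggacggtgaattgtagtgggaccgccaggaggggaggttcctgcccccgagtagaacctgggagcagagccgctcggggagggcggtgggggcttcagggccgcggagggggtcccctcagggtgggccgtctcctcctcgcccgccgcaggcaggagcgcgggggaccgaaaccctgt
CD24, chr6:106974040-106974289, minus strand: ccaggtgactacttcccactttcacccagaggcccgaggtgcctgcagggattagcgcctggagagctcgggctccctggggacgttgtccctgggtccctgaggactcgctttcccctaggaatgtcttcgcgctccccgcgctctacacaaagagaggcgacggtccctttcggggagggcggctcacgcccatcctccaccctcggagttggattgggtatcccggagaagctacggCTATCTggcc
ALDH1A3, chr15:100879581-100879691, plus strand: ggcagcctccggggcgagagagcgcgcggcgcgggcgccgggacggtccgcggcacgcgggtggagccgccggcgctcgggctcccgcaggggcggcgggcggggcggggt
MUC1, chr1:155192916-155193165, minus strand: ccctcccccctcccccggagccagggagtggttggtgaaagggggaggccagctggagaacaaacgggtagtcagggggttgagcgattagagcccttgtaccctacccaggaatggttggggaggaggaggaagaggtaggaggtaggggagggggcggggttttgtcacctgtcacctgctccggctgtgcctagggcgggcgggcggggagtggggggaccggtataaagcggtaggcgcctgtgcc
The second CD24 stretch held 1 match, CTATCT, whose first base is 10 bases before that start site, and the other 3 held none. Over the 250 bases before each start site, 1 of 12 windows of these genes held a match, beside 22.3% of the 35116 windows in the table. The letters looked for are the consensus motif of GATA3. At ChIP-seq peaks of the tagged mutants the study reports a partial motif, WGAT or AGAT, which was not searched for here. The GC content was 65.6% and 64.0% in the CD24 stretches, 87.4% in that of ALDH1A3 and 66.0% in that of MUC1.

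EPCAM and CD44 were not called in any comparison, and their differences from control had opposite signs and were below 1.5-fold. EPCAM lies on the plus strand at chr2:47369148-47387028. Its level was 195, 224 and 204 CPM in the control libraries, 283, 273 and 277 in those with Splice del, 267, 267 and 271 in those with C321fs and 273, 275 and 258 in those with A333fs. All 9 mutant libraries were above the 3 control libraries. The log2 fold change was 0.42 ± 0.05 with Splice del (edgeR adjusted p = 1.38e-05), 0.37 ± 0.05 with C321fs (edgeR adjusted p = 7.06e-05) and 0.37 ± 0.05 with A333fs (edgeR adjusted p = 3.27e-05). Among the mutant lines EPCAM differed by 0.05 between Splice del and C321fs (95% interval -0.07 to 0.16), by 0.00 between A333fs and C321fs (-0.11 to 0.12) and by -0.05 between A333fs and Splice del (-0.16 to 0.07).

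CD44 lies on the plus strand at chr11:35138870-35232402, with 6678 bases of counted exons. Its level was 46.1, 49.5 and 44.4 CPM in the control libraries, 38.7, 39.3 and 43.4 in those with Splice del, 37.3, 38.6 and 41.4 in those with C321fs and 38.3, 37.9 and 41.4 in those with A333fs. Every mutant library was below the lowest control library, and the highest of them, Splice del replicate 3, came close to it. The log2 fold change was -0.21 ± 0.07 with Splice del (edgeR adjusted p = 0.015), -0.26 ± 0.07 with C321fs (edgeR adjusted p = 0.00494) and -0.25 ± 0.07 with A333fs (edgeR adjusted p = 0.00407). Between mutant lines it was 0.05 (95% interval -0.09 to 0.19), 0.00 (-0.14 to 0.15) and -0.04 (-0.19 to 0.10) for Splice del over C321fs, A333fs over C321fs and A333fs over Splice del. The CD44 difference from control depended on the scaling: by library size only it was -0.02, -0.09 and -0.10, and with the GC and length trend taken out it was -0.41, -0.39 and -0.47. The 1198 tested genes within 1 percentage point of the GC content of CD44 (43.8%) had medians of 0.18, 0.16 and 0.24.

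PROM1 and KIT were at the lower end of detection. PROM1 (chr4:15968226-16084000, minus strand) had 4, 11 and 15 counts in the control libraries, 23, 27 and 19 in those with Splice del, 6, 13 and 10 in those with C321fs and 14, 17 and 25 in those with A333fs. The Splice del counts were above all control counts. The log2 fold change of PROM1 was 1.01 ± 0.38 with Splice del (edgeR adjusted p = 0.0323), -0.09 ± 0.45 with C321fs (edgeR adjusted p = 0.875) and 0.78 ± 0.39 with A333fs (edgeR adjusted p = 0.0974), so no difference was called at this depth. KIT (chr4:54657928-54740715, plus strand) had 0, 0 and 0 counts in the control libraries, 2, 2 and 1 in those with Splice del, 1, 0 and 2 in those with C321fs and 1, 1 and 0 in those with A333fs, 10 in all. A count of 0 allows up to 3 counts per library, so a small difference in KIT could not be detected. KIT failed the filter on low counts and was not tested.

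Of the 6 tested genes, 0 were called higher and 0 lower with Splice del, where 6.21% of all tested genes were called higher and 4.53% lower. For C321fs the numbers were 0 and 1 (MUC1), beside 4.63% and 2.26% of all genes, and for A333fs they were 2 (CD24 and ALDH1A3) and 1 (MUC1), beside 5.46% and 6.81%. These 3 comparisons share the control libraries. Over all genes the split between higher and lower calls depended on the processing. It was 918 higher and 670 lower, 684 and 334, and 808 and 1007 for Splice del, C321fs and A333fs. It was 2025 and 171, 1518 and 110, and 1544 and 380 with library size only, and 1321 and 348, 1024 and 163, and 1329 and 475 with upper-quartile scaling. With the GC and length trend taken out it was 695 and 352, 473 and 189, and 580 and 223. Single libraries moved it too. Without control replicate 1 it was 773 and 807 for Splice del and 529 and 442 for C321fs. For C321fs it was 530 and 213 without control replicate 2 and 733 and 552 without C321fs replicate 1. For A333fs it was 732 and 700 without control replicate 2 and 810 and 758 without A333fs replicate 2. Between mutant lines, 2 genes were called higher and 0 lower in Splice del over C321fs (1.76% and 0.879% of all genes), 2 and 0 in A333fs over C321fs (2.47% and 3.08%), and 1 and 0 in A333fs over Splice del (1.03% and 1.97%). A test of any difference among the 4 lines at an adjusted p under 0.01 passed for 5 of the 6, all but PROM1, and for 56.2% of all genes. The median log2 fold change of the 6 genes was 0.38, -0.17 and 0.58 for Splice del, C321fs and A333fs, beside 0.03, 0.02 and 0.01 over all tested genes.

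CD44 and CD24 are read together on the cell surface, and their ratio within a library does not depend on library scaling. It can still depend on GC content, which is 43.8% for CD44 and 49.8% for CD24. With A333fs, tested genes within 1 percentage point of these had median log2 fold changes of 0.238 and -0.00555. The ratio was not computed with the GC and length trend taken out. The log2 ratio of CD44 to CD24 fragments was -2.88, -2.84 and -3.14 in the control libraries, -3.59, -3.54 and -3.35 in those with Splice del, -3.24, -3.25 and -3.07 in those with C321fs and -4.23, -4.21 and -4.03 in those with A333fs. The A333fs libraries were below all others, the Splice del libraries lay below control, and C321fs overlapped control. There were 7.77 ± 0.885 CD24 fragments per CD44 fragment in control (SD, n = 3), 11.3 ± 0.961 with Splice del, 9.12 ± 0.637 with C321fs and 17.9 ± 1.33 with A333fs. The log2 ratio differed from control by -0.54, -0.23 and -1.20, and the exact two-sided permutation test of 3 against 3 libraries gave p = 0.1, p = 0.2 and p = 0.1, where 0.1 is the smallest p this design allows. All 9 mutant libraries together differed from the 3 control libraries by -0.66 (exact two-sided permutation test over 220 splits, p = 0.0318, adjusted p = 0.117 over 7 comparisons), which failed the correction. Each line was a single pool, and the A333fs libraries lay below those of the other mutant lines. The test of all 9 therefore takes libraries as the unit, and its p-value does not measure an effect of the mutants.

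**Figure D3:**
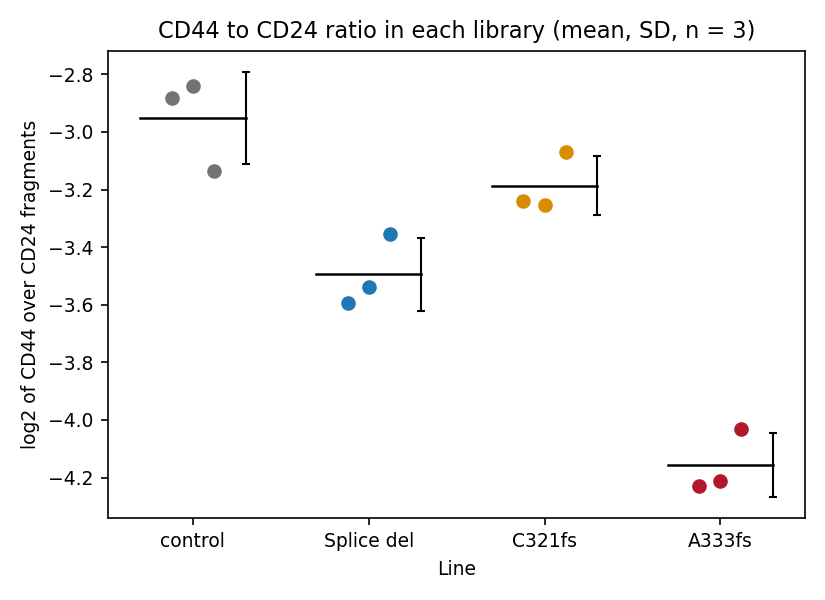
Log2 ratio of CD44 to CD24 fragments by line, with 1 point per library and the mean and SD of 3 libraries. The A333fs libraries lay between -4.23 and -4.03 and the control libraries between -3.14 and -2.84.

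To set levels between genes, CPM was divided by kilobases of counted exon. In control cells MUC1 was highest with 203 ± 24.7 (SD, n = 3), followed by EPCAM with 121 ± 8.68 and CD24 with 114 ± 8.26, which did not differ beyond their spread. ALDH1A3 with 8.52 ± 0.504 and CD44 with 6.99 ± 0.387 were lower, and PROM1 had 0.0781 ± 0.0448. In A333fs cells the order at the top was turned around, with CD24 at 221 ± 6.79, EPCAM at 156 ± 5.54 and MUC1 at 124 ± 3.94. In Splice del cells EPCAM at 162 ± 2.73, MUC1 at 158 ± 29.5 and CD24 at 144 ± 3.71 lay within the wide spread of MUC1. In C321fs cells EPCAM at 156 ± 1.15 was above CD24 at 113 ± 3.56 and MUC1 at 105 ± 10.9, and ALDH1A3 at 5.96 ± 0.244 did not differ from CD44 at 5.85 ± 0.312 beyond the spread. In A333fs cells ALDH1A3 stood at 15.5 ± 0.221 and CD44 at 5.87 ± 0.284.

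**Figure D4:**
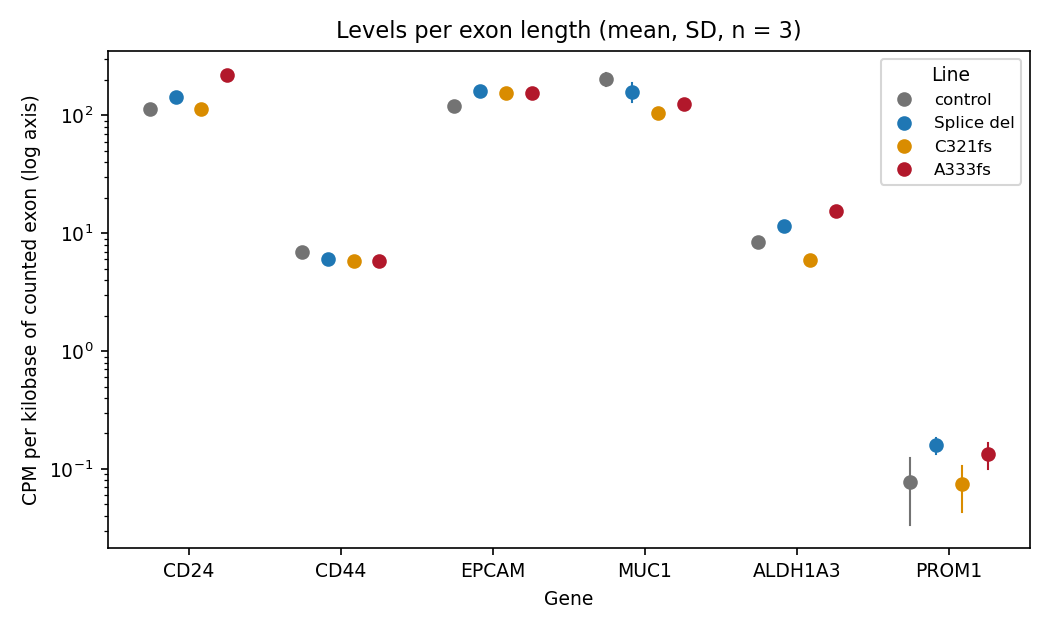
Mean level of the genes as CPM per kilobase of counted exon on a log axis, by line, with the SD of 3 libraries. MUC1, EPCAM and CD24 were at 105 to 221, ALDH1A3 and CD44 at 5.85 to 15.5 and PROM1 at 0.0741 to 0.159.

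Genes that act with these markers were examined in lists written from general knowledge, beside the shares of all genes given above. The filter on low counts could be passed through the mutant libraries alone, as by GALNT5 and SPARC, which had few counts in control. Higher calls of such genes depend in part on the filter and lend no weight to a list. Of the 14 tested genes of hyaluronan and CD44, the calls were 1 higher and 0 lower with Splice del, 0 and 0 with C321fs, and 1 and 0 with A333fs. HYAL1, a hyaluronidase, was higher with Splice del (log2 fold change 0.79), and HAS3, a hyaluronan synthase, with A333fs (1.13). HAS3 had 1.56, 1.06 and 0.868 CPM in the control libraries, 1.68, 1.83 and 1.67 in those with Splice del, 1.25, 1.11 and 1.62 in those with C321fs and 2.26, 2.94 and 2.47 in those with A333fs. HAS2, a further synthase, was not tested and had 2, 0 and 0 counts in the control libraries, 5, 3 and 1 in those with Splice del, 8, 12 and 12 in those with C321fs and 3, 2 and 0 in those with A333fs. HMMR, another hyaluronan receptor, was 0.60 ± 0.18 with C321fs (edgeR adjusted p = 0.0114) and not called. ESRP1 and ESRP2, splicing factors that favor the epithelial isoforms of CD44, had log2 fold changes of 0.16, 0.15 and 0.03 and of -0.23, -0.30 and -0.53 for Splice del, C321fs and A333fs, none called. No mutant line overlapped control in ESRP2 (edgeR adjusted p = 0.00179, 0.000355 and 1.22e-06), which was under the limit on fold change.

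Of the 8 tested partner genes of CD24, the calls were 0 higher and 1 lower with Splice del, 1 and 1 with C321fs, and 1 and 0 with A333fs. L1CAM, an adhesion protein that CD24 binds, had 27.6, 34.8 and 31.6 CPM in the control libraries, 12.3, 12.2 and 13.2 in those with Splice del, 13.9, 16.3 and 18.9 in those with C321fs and 62.5, 66.3 and 71.2 in those with A333fs. L1CAM was lower with Splice del (-1.33) and C321fs (-0.94) and higher with A333fs (1.09), and no mutant line overlapped control. A333fs cells exceeded Splice del cells in L1CAM by 2.41 ± 0.10 and C321fs cells by 2.02 ± 0.10 (edgeR adjusted p = 1.44e-09 and 6.56e-10). PIGA, which acts in the first step of the anchor that holds CD24 in the membrane, was higher with C321fs (0.62), a call lost without control replicate 1 (0.55) or C321fs replicate 3 (0.57) and with the GC and length trend taken out (0.26). SELP, the P-selectin that binds CD24, had 0 counts in every library.

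Of the 16 tested genes of EPCAM partners and cleavage, the calls were 1 higher and 1 lower with Splice del, 0 and 1 with C321fs, and 1 and 0 with A333fs. CLDN1, a tight junction claudin, fell from 154 ± 9.99 CPM in control to 75.0 ± 0.744 CPM with Splice del and 46.3 ± 1.5 CPM with C321fs, and was 138 ± 1.31 CPM with A333fs. CD9, a tetraspanin, was higher with Splice del (0.62), a call lost without control replicate 3 (0.58) and with the GC and length trend taken out (0.52). FHL2, a cofactor that binds the cleaved EPCAM tail, was higher with A333fs (0.72). CLDN7, a claudin that EPCAM binds, had log2 fold changes of -0.12, -0.12 and -0.29 for Splice del, C321fs and A333fs, with no call.

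Of the 15 tested genes of transmembrane mucins and O-glycosylation, which decorates MUC1, the calls were 2 higher and 0 lower with Splice del, 3 and 0 with C321fs, and 2 and 0 with A333fs. GALNT5, which starts O-glycan chains, had 3, 7 and 3 counts in the control libraries, 329, 275 and 245 in those with Splice del, 32, 25 and 34 in those with C321fs and 170, 172 and 201 in those with A333fs (log2 fold changes 5.81, 2.73 and 5.24). GALNT7, of the same enzyme family, was higher with Splice del (0.93) and C321fs (0.95). C1GALT1C1, the chaperone of the enzyme that extends these chains, was higher with A333fs (0.63), and lost its call once the GC and length trend was taken out (0.28). The membrane mucins MUC4 and MUC16 had at most 7 counts in any library and were not tested.

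Of the 7 tested prominin and protrusion genes, the calls were 0 higher and 0 lower with Splice del, 0 and 1 with C321fs, and 0 and 2 with A333fs. PROM2, the relative of PROM1, had 136 ± 9.83 CPM in control and 89.5 ± 1.32 CPM with A333fs (log2 fold change -0.61). The PROM2 call was lost with the GC and length trend taken out (-0.30), with upper-quartile scaling (-0.49), with library size only (-0.46), without control replicate 2 (-0.55) and without A333fs replicate 2 (-0.58). TTYH1, a membrane protein, was lower with C321fs (-0.75) and A333fs (-0.87), and neither was called with the GC and length trend taken out (-0.51 and -0.45).

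Of the 22 tested genes of KIT signaling, the calls were 1 higher and 1 lower with Splice del, 1 and 0 with C321fs, and 1 and 1 with A333fs. KITLG, the ligand of KIT, had 136, 147 and 164 CPM in the control libraries, 87.4, 87.2 and 77.8 in those with Splice del, 130.4, 151 and 154 in those with C321fs and 106, 135 and 112 in those with A333fs. The Splice del libraries were the lowest (log2 fold change -0.82 ± 0.09, edgeR adjusted p = 3.77e-06), so the ligand was well counted in cells whose receptor had almost no counts. FYN, a Src family kinase, was higher with Splice del (1.51) and A333fs (1.12). DOK1, an adaptor protein, was lower with A333fs (-0.71), and lost its call once the GC and length trend was taken out (-0.30) or with library size only (-0.56).

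Of the 20 tested genes of retinoid metabolism, the pathway of ALDH1A3, the calls were 5 higher and 1 lower with Splice del, 2 and 2 with C321fs, and 3 and 1 with A333fs. The related retinal dehydrogenases ALDH1A1, with at most 7 counts in any library, and ALDH1A2, with 0 counts in all, were not tested. CYP26A1, which degrades retinoic acid, had 0.577, 0.834 and 1.04 CPM in the control libraries, 1.68, 1.39 and 1.22 in those with Splice del, 0.731, 0.624 and 0.421 in those with C321fs and 2.84, 3.54 and 2.99 in those with A333fs, and its line means followed the order of ALDH1A3. Its log2 fold change was 0.82 ± 0.23 with Splice del (edgeR adjusted p = 0.00774), -0.46 ± 0.28 with C321fs (edgeR adjusted p = 0.188) and 1.93 ± 0.21 with A333fs (edgeR adjusted p = 2.16e-06). The Splice del call was lost with DESeq2 (0.80), with a replicate block (0.82), without control replicate 1 (0.62) or 2 (0.83), Splice del replicate 1 (0.68) or 2 (0.84), C321fs replicate 2 (0.82) or A333fs replicate 3 (0.82). RARA, a retinoic acid receptor, was lower with Splice del, C321fs and A333fs (-0.72, -0.66 and -0.99). Another receptor of the list, RARB, went the other way. It was called higher with Splice del (1.42, edgeR adjusted p = 0.00665) and A333fs (2.11, edgeR adjusted p = 0.000134). RARB was named after its values were seen, and its counts and dependence on the processing were not examined. With the GC and length trend taken out RARA was -0.53, -0.45 and -0.55 and not called, and the C321fs call was also lost without control replicate 2 (-0.58). NRIP1, a corepressor of nuclear receptors, was higher with Splice del (0.92) and C321fs (0.86), the latter not with the GC and length trend taken out (0.54).

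The remaining lists describe cell states. The luminal progenitor list held 25 genes besides the markers, and 11 of them passed the filter on low counts. Of these 11, the calls were 5 higher and 0 lower with Splice del, 1 and 0 with C321fs, and 5 and 1 with A333fs. The median log2 fold changes were 0.45, 0.13 and 0.46. TNFRSF11A, the receptor for RANK ligand, had 4.34 ± 0.431 CPM in control, 16.2 ± 1.14 with Splice del, 7.85 ± 0.671 with C321fs and 16.1 ± 0.584 with A333fs. EHF, an epithelial ETS factor, was higher with Splice del (0.76) and A333fs (0.65), and in neither with the GC and length trend taken out (0.47 and 0.35). CD14, a lipopolysaccharide coreceptor, was higher with Splice del (1.87) and A333fs (0.93). The gene called lower with A333fs, FOLR1 (-0.88), was named after its value was seen, and its dependence on the processing was not examined.

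Of the 32 tested mature luminal genes, the calls were 9 higher and 3 lower with Splice del, 3 and 3 with C321fs, and 6 and 4 with A333fs, with medians of 0.00, -0.18 and -0.11. AGR2, a disulfide isomerase of secretory cells, had 1022 ± 64.7 CPM in control, 2034 ± 24.9 with Splice del, 1462 ± 56.4 with C321fs and 1864 ± 84.4 with A333fs, and was called with Splice del and A333fs. SCUBE2, a secreted glycoprotein, was higher with every mutant (1.51, 1.04 and 1.30). TFF3, a secreted trefoil peptide, was higher with Splice del (1.36) and A333fs (0.61), the latter not without control replicate 1 (0.58) or A333fs replicate 1 (0.57).

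The mature luminal genes called lower, named after their values were seen, were the luminal keratins KRT8, KRT18 and KRT19, CITED1, SPDEF and WNT4. KRT8 fell from 7518 ± 836 CPM in control to 3697 ± 197 with Splice del (log2 fold change -1.02) and 4210 ± 249 with C321fs (-0.84), and was 5337 ± 322 with A333fs (-0.49, not called). KRT18 was lower with Splice del (-0.82) and C321fs (-0.65), and KRT19 with Splice del (-0.64) and A333fs (-0.61). CITED1, a transcriptional coregulator, was lower with C321fs (-0.94) and A333fs (-1.02). SPDEF, an ETS factor (-0.74), and WNT4, a secreted ligand (-0.90), were lower with A333fs. Without control replicate 2 the calls of KRT18 with C321fs (-0.56) and of KRT19 with Splice del (-0.55) and A333fs (-0.52) were lost, and that of KRT19 with A333fs also without A333fs replicate 2 (-0.54). Those 3 calls and that of SPDEF were also lost with the GC and length trend taken out (-0.50, -0.42, -0.26 and -0.32).

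Of the 20 tested basal and myoepithelial genes, the calls were 2 higher and 1 lower with Splice del, 3 and 1 with C321fs, and 5 and 2 with A333fs, with medians of 0.14, 0.06 and 0.22. SPARC, a matrix protein, had 6, 8 and 8 counts in the control libraries, 256, 247 and 233 in those with Splice del, 58, 47 and 55 in those with C321fs and 365, 364 and 423 in those with A333fs. SPARC passed the filter through the mutant libraries, and its higher calls are in the numbers above. VIM, an intermediate filament of mesenchymal cells, was higher with every mutant (1.46, 0.64 and 1.6), for C321fs not without control replicate 1 (0.55) or C321fs replicate 2 (0.57). TRIM29 was higher with A333fs (1.62), as were KRT14 (5.25) and ACTA2 (0.62), and TP63 was higher with C321fs (1.34). The edgeR adjusted p was 2.22e-05 for KRT14, 7.82e-05 for ACTA2 and 0.00827 for TP63, the last close to the limit. KRT14, ACTA2 and TP63 were named after their values were seen, and their dependence on the processing was not examined. Their counts were not examined either, so these fold changes may rest on low counts. The basal genes called lower, named after their values were seen, were ITGB4, a laminin-binding integrin subunit, with every mutant (-0.63, -0.62 and -0.69) and TAGLN, an actin-binding protein of contractile cells, with A333fs (-0.78). With the GC and length trend taken out, ITGB4 was -0.44, -0.38 and -0.25 and TAGLN -0.50, none called. The ITGB4 call was also lost without control replicate 2 for Splice del (-0.56) and C321fs (-0.56), without Splice del replicate 1 (-0.57) and without C321fs replicate 2 (-0.58).

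Of the 25 tested genes used as other stem cell markers, the calls were 5 higher and 1 lower with Splice del, 2 and 1 with C321fs, and 6 and 2 with A333fs, with medians of 0.24, 0.08 and 0.35. CXCR4, a chemokine receptor, had 17, 11 and 17 counts in the control libraries, 237, 204 and 200 in those with Splice del, 78, 88 and 74 in those with C321fs and 145, 112 and 133 in those with A333fs (log2 fold changes 3.65, 2.36 and 3.0). LGR4, a receptor for R-spondins, was higher with Splice del (0.88) and A333fs (0.73), the latter not with the GC and length trend taken out (0.45). MSI1, an RNA-binding protein, was lower with A333fs (-0.97).

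**Figure D5:**
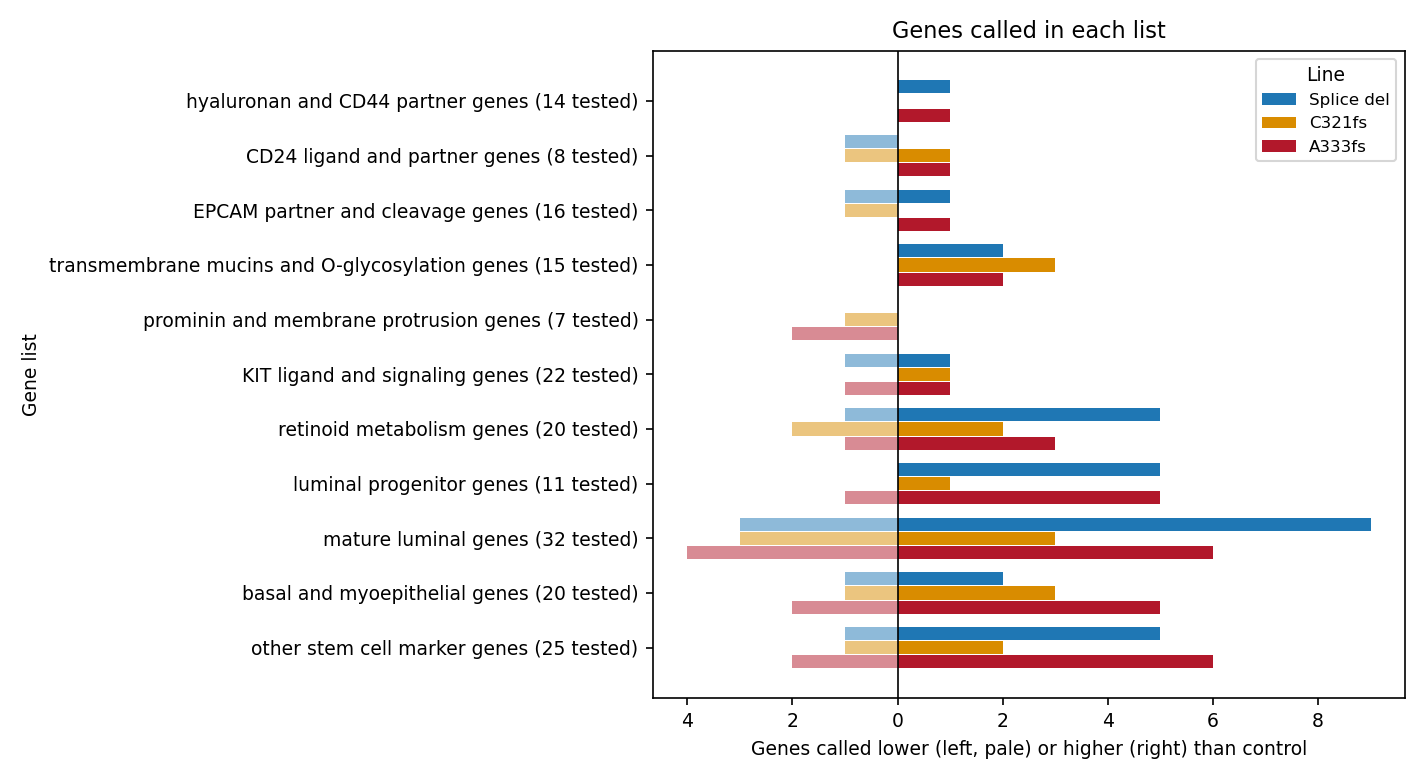
Number of genes called against control in each of the 11 lists and mutant lines, with bars to the right for higher and paler bars to the left for lower calls. The mature luminal list, the largest with 32 tested genes, had the most calls, with 9 higher and 3 lower for Splice del.

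The genes most like each marker were those with the highest Pearson r of log2 CPM over the 12 libraries, among 14788 others. The libraries share 4 lines, so the r values in part restate the line means. The genes were picked for high r, so these values and those within lines are a description. For CD24 they were RCAN1 (r = 0.984), TPD52L1 (0.979) and SYBU (0.977). RCAN1, a calcineurin inhibitor, had 112 ± 2.87 CPM in control, 183 ± 2.67 with Splice del, 97.8 ± 4.16 with C321fs and 343 ± 5.78 with A333fs. For ALDH1A3 they were ALDH6A1 (0.987), NFIB (0.986) and SLC20A2 (0.983), whose log2 fold changes with A333fs (0.31, 0.51 and 0.51) were below that of ALDH1A3. For MUC1 they were LAMB2 (0.983), BCAM (0.970) and PI4KA (0.968). For CD44 they were ACTN1 (0.974), DIAPH1 (0.967) and SALL2 (0.966). For EPCAM they were ALG5 (0.976), MEX3B (0.970) and MIR5047 (0.967), and for PROM1, with its low counts, FNBP1 (0.933), SPIDR (0.906) and SLAIN2 (0.896). After the line means were taken out, r for these genes in the same order was 0.636, 0.341 and -0.153 for CD24, 0.684, 0.546 and 0.599 for ALDH1A3, 0.932, 0.790 and 0.785 for MUC1, 0.934, 0.958 and 0.882 for CD44, 0.701, 0.666 and 0.810 for EPCAM and 0.873, 0.872 and 0.887 for PROM1.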

How the data were processed

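The 12 RNA-seq libraries of T47D cells were used and the 15 ChIP-seq samples were not used here. The authors sequenced total RNA in read pairs and deposited raw counts of properly paired fragments per gene on hg38, made with featureCounts 1.6.4 without strand. No normalization or pooling of replicates was applied to these counts. The aligner is not settled, since the submitters' processing notes name HISAT2 and the header of the count table shows a STAR folder.

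After filterByExpr by line and TMM scaling, 1 edgeR model (version 4.0.16, R 4.3.3, glmQLFit and glmQLFTest) with a mean for each line was fitted to all 12 libraries, and p-values were adjusted by Benjamini-Hochberg over all genes tested. SEs and 95% intervals were derived from the F statistic and are approximate. The coefficient of variation between replicates was 6.73%. Code was tested on simulated data. Deviations of same-numbered libraries from their line means had a mean correlation of -0.00915 (18 pairs, range -0.123 to 0.165). No strong shift shared by same-numbered libraries was thus seen, which does not exclude that they were paired. Chi-square per gene between replicates was 2.16 to 27.8, above sampling noise.

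The markers, lists and tests were chosen with earlier results of these data known. The named genes were the 7 markers, GATA3, partner genes (KITLG, HAS2, HAS3, HMMR, ESRP1, ESRP2, CLDN7, PROM2, ALDH1A1, ALDH1A2, MUC4, MUC16 and SELP, and 1 that is not reported here), in each list up to 3 genes called against control by smallest adjusted p, and the 3 genes most like each tested marker (log2 CPM, prior count 2). DCN, LUM, KRT14, ACTA2, TP63, FOLR1, RARB and the mature luminal and basal genes called lower were added after their values were seen. Alternatives were other scalings (RLE, upper-quartile, library size only), other filters (none, or 10 counts in every library), a fit to each pair of lines, DESeq2 1.42.0, other thresholds, a test against a fold of 1.5, a replicate block, removal of a loess trend (span 0.3) over GC content and exon length, and leaving out each library.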

Additional observations from a re-analysis of the deposited data

Results flagged for a closer look

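A test of the difference between 2 mutant lines passed the thresholds for 5 values, each by edgeR's quasi-likelihood test. CD24 was higher in A333fs than in C321fs cells by 0.97 on the log2 scale (3 of 3 libraries above every C321fs library) and than in Splice del cells by 0.62, a call lost with library size only (0.58) and in a test against a fold of 1.5. ALDH1A3 was higher in A333fs than in C321fs cells by 1.38 and in Splice del than in C321fs cells by 0.95. MUC1 was higher in Splice del than in C321fs cells by 0.59, a call lost without Splice del replicate 3 (0.43), C321fs replicate 1 (0.55) or C321fs replicate 2 (0.55).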

How the results depend on the processing

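CD24 and ALDH1A3 with A333fs and MUC1 with C321fs stayed called without each single library, and no value of the markers that was called changed sign under any alternative. Of the 6 tested markers, the number called with Splice del against control, 0, became 2 with library size only (EPCAM and ALDH1A3), 1 at an adjusted p of 0.05 (PROM1) and 3 with no minimum fold. For C321fs the number, 1, became 4 with no minimum fold and 0 in the test against a fold of 1.5, and for A333fs the number, 3, became 5 with no minimum fold and 2 with library size only, with the GC and length trend taken out and in the test against 1.5. For Splice del over C321fs the number, 2, became 3 with no minimum fold and 1 in the test against 1.5, and ran from 1 to 2 without single libraries. For A333fs over Splice del the number, 1 (CD24), became 0 with library size only and in the test against 1.5 and 2 with no minimum fold. Calls over all genes against control numbered 2766 higher and 3314 lower, 2382 and 3067, and 3112 and 3902 with no minimum fold, and 213 and 63, 80 and 30, and 234 and 119 in the test against 1.5, for Splice del, C321fs and A333fs. Calls in the lists, 40, 26 and 44, became 99, 87 and 118 with no minimum fold and 16, 7 and 18 in the test against 1.5, and those for C321fs became 41 with library size only. Of all tested genes, 6.21% were called higher and 4.53% lower with Splice del. The shares were 4.63% and 2.26% with C321fs and 5.46% and 6.81% with A333fs. The lists were chosen with earlier results known, so setting their calls beside these shares is not a test. Library size only shifted the all-gene median (log2) by 0.19, 0.17 and 0.15 and upper-quartile scaling by 0.09, 0.09 and 0.11, and CD24 with C321fs, -0.02, was then 0.14 and 0.06. For A333fs over Splice del, the GC and length trend taken out gave 189 genes higher and 201 lower in place of 152 and 292, and leaving out A333fs replicate 3 gave 127 and 194. A replicate block gave 0, 1 and 3 markers called against control, with CD24 at 0.33 for Splice del, and changed no marker's call. Fewer genes pass a stricter test by construction, and the cause of the other changes was not tested. Depth limited PROM1 and KIT.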
